A study of Mus musculus with 6 samples.

Results

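The respiratory chain and ATP synthase genes of mouse fetal liver erythroblasts were examined with and without added cholesterol. They are the nuclear genes for the subunits of complexes I to V of the inner mitochondrial membrane, and they were taken by symbol, as all genes that begin with Ndufa, Ndufb, Ndufc, Ndufs, Ndufv, Uqcr, Cox4 to Cox8 or Atp5, with Sdha, Sdhb, Sdhc, Sdhd and Cyc1, leaving out the Ndufaf assembly factors and -ps pseudogenes. The rule found 86 of the 17463 genes in the count table, and 80 of them had enough counts to be tested among 11277 genes. Complex I had 37 members, complex II 4, complex III 9, complex IV 19 and complex V 16, and 1 member, Atp5s, carries an ATP synthase symbol but is not a subunit. Ndufa4 and Ndufa4l2 were counted with complex IV, where the NDUFA4 protein sits.

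RNA-seq covered 3 control samples (C1 to C3) and 3 samples given 40 µM cholesterol (CHO1 to CHO3), all from the fetal livers of C57BL/6J mice in mid-gestation. In both groups, cells without the erythroid surface marker TER119 were put into medium with erythropoietin (Epo), the hormone that drives red cell formation, for 30 h, and per the study's methods TER119+ erythroblasts were then sorted. The labels call the controls untreated, while a figure legend of the study calls them vehicle. The series asks what excess cholesterol does to erythroblast gene expression. The labels give both groups the same strain and name no allele or transgene. A figure legend of the study speaks of independent experiments for its panels together, but the labels do not say whether these samples came from separate cultures or litters, so p-values measure the spread between these samples, which may be technical.

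Complex I (NADH dehydrogenase) and complex II (succinate dehydrogenase) feed electrons to ubiquinone, complex III passes them on to cytochrome c, and complex IV (cytochrome c oxidase) hands them to oxygen. Complexes I, III and IV pump protons, and complex V (ATP synthase) uses the proton gradient to make ATP. Maturing erythroblasts need mitochondria for heme synthesis and later remove them, so that the red cell depends on glycolysis. Some subunits, catalytic ones among them, are encoded by mitochondrial DNA, and their genes were not found in the count table.

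Library totals were between 19826849 and 20061724 counts. At this depth 3 counts, used here as the limit of detection, came to about 0.15 CPM (per-library counts after TMM scaling). All 14 erythroid markers examined, among them Alas2 and Klf1, lay above 3 counts in all 6 samples. The samples numbered 3 stood apart from the others in both groups. Adult globin genes took 17.9% of the counts in C3 and 16.2% in CHO3, against 13.8% to 14.6% in the other control samples and 12.5% to 12.97% in the other cholesterol samples. The summed level of 10 neutrophil granule genes was 72.6, 270 and 728 CPM in C1 to C3 and 44.0, 116 and 303 CPM in CHO1 to CHO3, with all 10 above 3 counts in every sample. The 9 macrophage markers summed to 11.3 to 98.1 CPM in control and 7.59 to 43.2 CPM in cholesterol samples, the 7 mast cell and basophil markers to 1.47 to 18.5 and 0.493 to 2.86 CPM with Tpsb2 at 0 throughout, the 7 megakaryocyte markers to 65.3 to 84.4 and 61.3 to 70.1 CPM, and the 6 hepatocyte markers to 93.5 to 268 and 64.9 to 227 CPM. Their part in the results below was not tested.

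The 86 genes were abundant. They took 1.24%, 1.196% and 1.02% of all counts in C1 to C3 and 1.28%, 1.24% and 1.03% in CHO1 to CHO3. In each group the sample numbered 3 had the lowest share. Leaving the adult globin counts out of the total gave 1.46%, 1.39% and 1.25% in control and 1.46%, 1.43% and 1.23% in cholesterol samples. In bulk RNA, fewer cells of a type and less RNA per cell cannot be told apart.

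Compared per length, as FPKM (fragments scaled to transcript length and library total), the levels were lowest in complexes I and II and highest in complex IV. Among the tested members, the median of the mean FPKM over 6 samples was 90.5 in complex I, 79.0 in complex II, 169 in complex III, 337 in complex IV and 226 in complex V. The highest member was Atp5b, the catalytic beta subunit of the F1 head of ATP synthase, at 899 FPKM, followed by Cox6a1, a small complex IV subunit, at 678 FPKM. In complex I the levels ran from Ndufa11 at 25.5 FPKM to Ndufb8, a subunit of its membrane arm, at 217 FPKM. Complex II was the most even, from its membrane anchor Sdhd at 62.8 to the other anchor Sdhc at 89.9 FPKM. Complex III ran from Uqcrq at 80.3 to Uqcr10 at 248 FPKM, complex IV from Cox7b at 114 FPKM and complex V from the c subunit gene Atp5g2 at 156 FPKM. Atp5s stood at 8.47 FPKM. FPKM depends on the transcript length assumed for each gene, so these ranks are approximate.

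**Figure D1:**
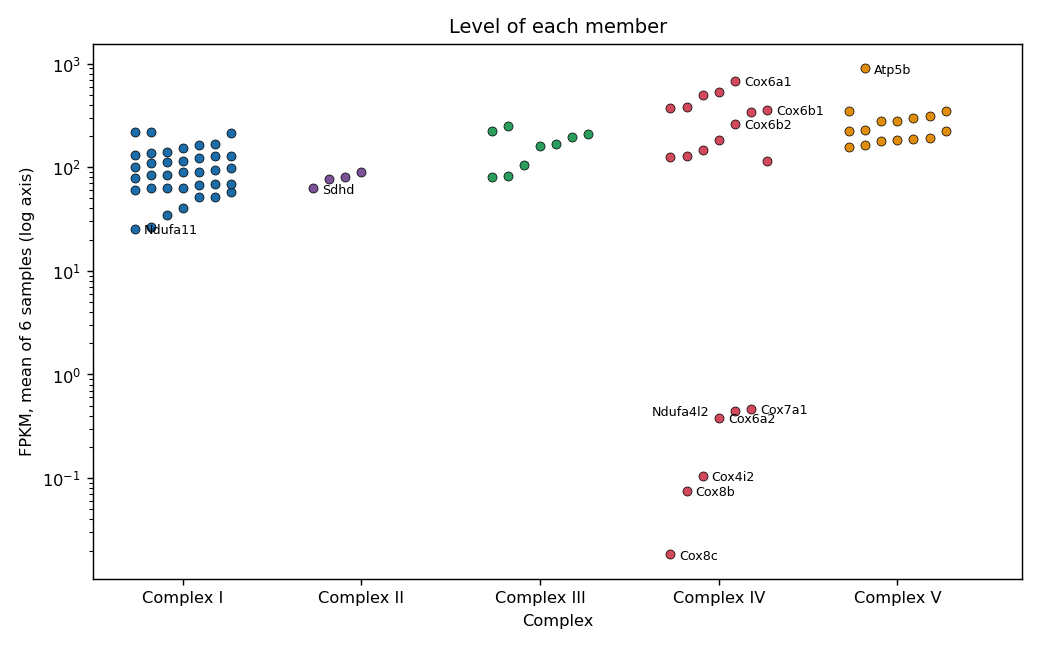
Mean FPKM over the 6 samples (log axis) of each member but Atp5s, in columns by complex; each point is 1 gene, and side offsets only separate points. Complex IV members split into a set above 100 FPKM and 6 members, the untested ones, below 1 FPKM.

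Several complex IV subunits exist as alternative isoforms that are used in different tissues. Here 6 such isoforms had low counts, at most 19 in any sample, while Cox6b2, described further on, did not. Among the isoforms typical of heart and skeletal muscle, Cox6a2 had 1 to 11 counts per sample and a mean of 0.38 FPKM, and Cox7a1 had 0 to 8 counts and a mean of 0.468 FPKM. Cox8b had at most 1 count, and Cox8c, a testis isoform, had 1 count in C2 and none in the other samples. Cox4i2, an isoform known from lung and low oxygen, had 2 to 7.13 counts and Ndufa4l2, a gene known to be induced by hypoxia, 1 to 19 counts. Their ubiquitous counterparts were at 399.9, 392.7 and 321.5 FPKM in control and 406.4, 396.0 and 332.5 FPKM in cholesterol samples for Cox4i1, and at 551.8, 521.9 and 426.5 and then 534.2, 537.2 and 439.2 FPKM for Cox8a. Cox7a2 had 152.2, 147.3 and 137.6 FPKM in control and 166.1, 149.5 and 135.7 FPKM in cholesterol samples, and Cox7a2l, a related factor of supercomplex assembly, 122.5, 126.1 and 117.0 and then 131.5, 132.4 and 116.6 FPKM. These 6 low isoforms were not tested, and nothing is said of their change. Ndufa4 itself had 348.1, 329.9 and 322.5 FPKM in control and 358.4, 354.5 and 309.5 FPKM in cholesterol samples.

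In cholesterol samples the respiratory chain and ATP synthase transcripts were close to their control levels. With edgeR's quasi-likelihood test and Benjamini-Hochberg adjustment over all 11277 genes, 0 of the 80 tested members were called at an adjusted p under 0.05, and over all genes the test called 0.00887% as higher and 0% as lower. At an unadjusted p under 0.05 the fit had 0 members higher and 1 lower (Cox6b2), where all genes gave 0.718% and 1.92%. DESeq2, which tested 16505 genes and called 0.0121% of them higher and 0.158% lower, and limma on log2 FPKM also called 0 members. With the replicate number in the model (the replicate block), 0 members were called higher and 1 lower, again Cox6b2, where 1.65% of all genes were called higher and 5.2% lower. With the block and an unadjusted p under 0.05, 1 member was higher (Ndufb8) and 3 were lower (Cox6b2, Ndufv3 and Ndufb4c), beside 8% and 11.6% of all genes.

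The fitted changes of the members were small. The median log2 fold change, cholesterol over control, was 0.013 over the 80 members and 0.0064 over all genes tested, and the quartiles were -0.019 and 0.043 for members against -0.092 and 0.083 for all genes. Of the 80 members, 77 (96.2%) had a fitted change of under 1.1-fold in either direction, as did 66.1% of all genes, many of which have far fewer counts. By complex the median was 0.02 for complex I, -0.0047 for complex II, 0.0074 for complex III, 0.01 for complex IV and -0.0016 for complex V. With the replicate block the standard errors of the members were between 0.038 and 0.094 on the log2 scale, and the 95% interval lay within a 1.25-fold change in either direction for 78 of the 80 (all but Cox6b2 and Ndufb4c). Without the block the standard errors were 0.056 to 0.21, and this held for 49 of the 80. Neither count was made over all genes, many of which have far fewer counts.

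**Figure D2:**
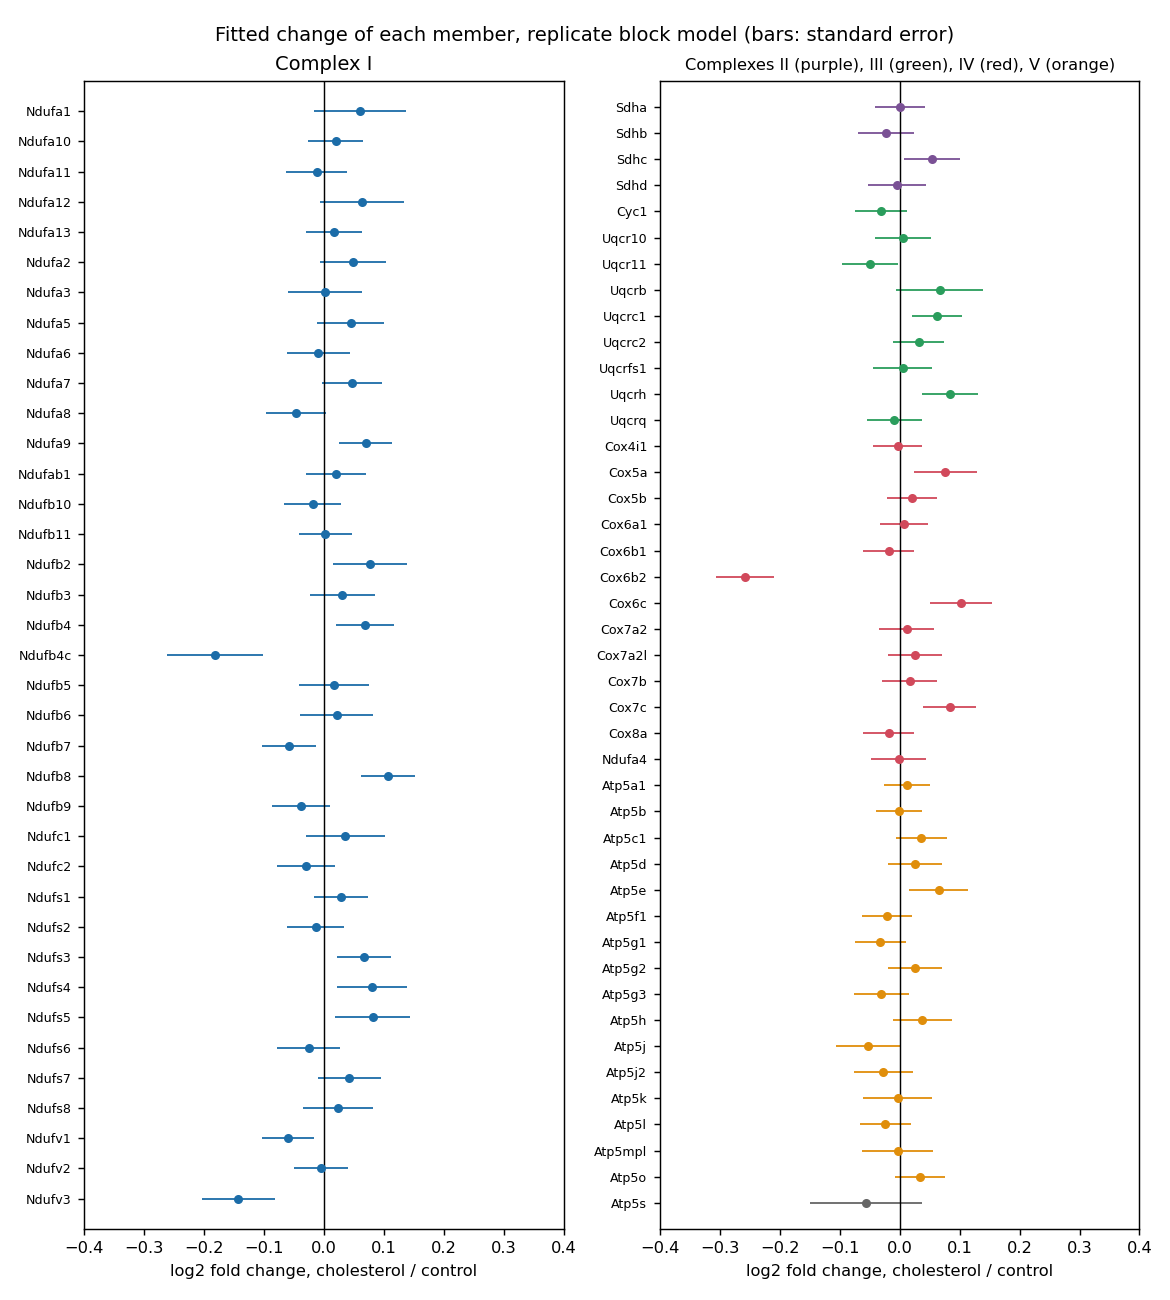
Log2 fold change (cholesterol over control) of each tested member from the fit with the replicate block, with complex I at left and complexes II to V and Atp5s (grey) at right; points are estimates and bars 1 standard error. Most members lie between -0.1 and 0.1, and Cox6b2 lies farthest from 0, at -0.26.

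The direction was mixed, and it depended on the scale and on single samples. On TMM-scaled CPM 46 of the 80 members were higher on average in cholesterol samples (52.1% of all genes), and on FPKM, which is scaled by the library total including globin, 68 of the 80 (61% of all genes). In complex I 24 of 37 were higher by CPM and 31 by FPKM, in complex II 1 and 4 of 4, in complex III 5 and 7 of 9, in complex IV 8 and 12 of 13, and in complex V 8 and 14 of 16. By CPM the count of 46 became 72 without C1, 51 without C2, 24 without C3, 23 without CHO1, 28 without CHO2 and 72 without CHO3. FPKM moved the median log2 difference of all genes to 0.027 and that of the members to 0.038.

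Same-numbered samples were compared next, since they deviated together. The cholesterol sample was higher than its control in all 3 pairs for 11 of the 80 members (19.9% of all genes) and lower in all 3 for 7 (20.1% of all genes). By FPKM, a scale that moved all genes upward, these counts were 29 (27.8% of all genes) and 3 (14.7% of all genes). The 11 were Ndufa7, Ndufa9, Ndufb4, Ndufb8, Ndufc1 and Ndufs3 of complex I, Uqcrc1 and Uqcrh of complex III, and Atp5a1, Atp5e and Atp5o of complex V. The 7 were Ndufb4c, Ndufv1 and Ndufv3 of complex I, Sdhb of complex II, Cox6b1 and Cox6b2 of complex IV, and Atp5g1 of complex V. The pairs did not share a direction. In pair 1, 41 of the 80 members were higher with cholesterol (48.9% of all genes), in pair 2 60 (51.4%), and in pair 3 35 (50.2%), with a mean log2 difference of -0.0081, 0.053 and -0.021. Complex I had 19, 30 and 12 of its 37 genes higher in pairs 1, 2 and 3, complex II 2, 1 and 3 of 4, complex III 5, 6 and 6 of 9, complex IV 5, 10 and 6 of 13, and complex V 9, 12 and 8 of 16.

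Cox6b2 was the member with the largest fitted change. COX6B is a small complex IV subunit on the intermembrane space side, near the site where cytochrome c docks, and Cox6b2 is known as its testis isoform while Cox6b1 is the common one. Cox6b2 (chromosome 7, 4751792 to 4753094, build GRCm38.p6) had 149.6, 131.1 and 144.8 CPM in C1 to C3 and 116.0, 118.7 and 120.4 CPM in CHO1 to CHO3, a mean of 142 ± 9.62 against 118 ± 2.23 (SD, n = 3). All 3 cholesterol samples lay below all 3 controls. The log2 fold change was -0.26 (SE 0.069), with an unadjusted p of 0.0081 and an edgeR adjusted p of 0.9998, so that the call failed the correction. With the replicate block the log2 fold change was also -0.26 (SE 0.048, 95% interval -0.36 to -0.16) with an edgeR adjusted p of 0.0023. Within pairs the log2 differences were -0.37, -0.14 and -0.27. The blocked call was lost without the pair numbered 1 (-0.20, edgeR adjusted p = 0.068) and held without pair 2 (-0.32, adjusted p = 0.0035) and without pair 3 (-0.26, adjusted p = 3.6e-05), and DESeq2 without the block gave an adjusted p of 0.45.

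The common isoform differed little. Cox6b1 (chromosome 7, 30616971 to 30626114) had 183.1, 175.0 and 162.6 CPM in control and 177.7, 174.9 and 161.5 CPM in cholesterol samples, with a blocked log2 fold change of -0.02 (SE 0.042, 95% interval -0.11 to 0.07) and an edgeR adjusted p of 0.88. Per length, Cox6b2 had 297.2, 269.5 and 279.2 FPKM in control and 240.9, 245.1 and 239.0 FPKM in cholesterol samples, next to 373.4, 368.5 and 323.9 and then 375.9, 369.5 and 329.5 FPKM for Cox6b1. The isoform named for testis was thus not far below the common one in these erythroblasts. Cox6b2 made up 44.3%, 42.2% and 46.3% of the FPKM of the pair in control samples and 39.1%, 39.9% and 42.0% in cholesterol samples (44.3 ± 2.03% against 40.3 ± 1.55%, SD, n = 3), and the groups did not overlap, although C2 at 42.2% and CHO3 at 42.0% nearly met. With 3 against 3 samples an exact permutation test cannot go below 0.1. The deposited counts of both genes were whole numbers in all 6 samples, so the counting program had not divided reads between them or with other genes.

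The annotation around Cox6b2 bears on its counts. The gene lies on the minus strand, and RefSeq places no other gene over it. The gene Fam71e2 ends 131 bases upstream of its start and had at most 0.05 FPKM. On the other side Kmt5c, a histone H4 methyltransferase gene on the plus strand that runs toward Cox6b2, ends 4277 bases away and was strongly expressed, with 237.5, 242.1 and 197.1 FPKM in control and 227.6, 209.2 and 192.0 FPKM in cholesterol samples. Its blocked log2 fold change was -0.12 (SE 0.042, edgeR adjusted p = 0.083). The library protocol names no step that marks the strand, and whether reads from a longer Kmt5c transcript were counted for Cox6b2 was not tested.

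The promoter windows of both isoforms are shown, because the only member called in either fit is 1 of them. Each runs from 250 bases before to 50 bases after the RefSeq start of the gene, 5′ to 3′ on the gene's strand (minus for both), in GRCm38.p6. The window of Cox6b1 is chr7:30626065-30626364 and that of Cox6b2 is chr7:4753045-4753344. The upstream end of the Cox6b2 window lies within the annotated span of Fam71e2.
Cox6b1: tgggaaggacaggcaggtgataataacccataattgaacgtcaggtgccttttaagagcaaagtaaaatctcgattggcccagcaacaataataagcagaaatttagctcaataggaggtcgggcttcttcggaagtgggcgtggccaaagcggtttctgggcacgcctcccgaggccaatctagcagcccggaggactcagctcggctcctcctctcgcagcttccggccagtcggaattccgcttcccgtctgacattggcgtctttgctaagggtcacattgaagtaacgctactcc
Cox6b2: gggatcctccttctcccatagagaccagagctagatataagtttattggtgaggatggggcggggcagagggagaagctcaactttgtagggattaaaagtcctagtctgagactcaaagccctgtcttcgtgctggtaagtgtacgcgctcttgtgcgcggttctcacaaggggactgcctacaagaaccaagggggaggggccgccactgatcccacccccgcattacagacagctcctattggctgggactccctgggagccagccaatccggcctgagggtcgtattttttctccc
Neither window held any of the 3 motifs searched below, which says only that those letters are not in it.

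**Figure D3:**
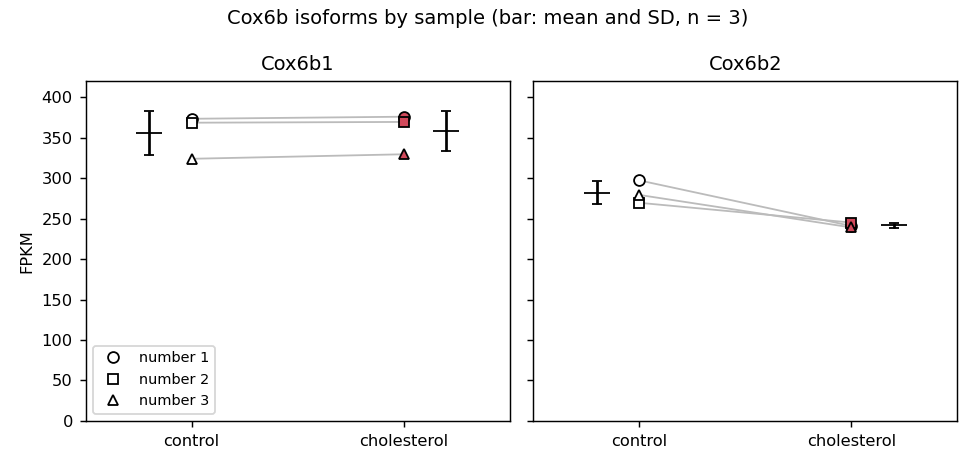
FPKM of Cox6b1 (left) and Cox6b2 (right) in each sample, with lines between same-numbered control (open) and cholesterol (red) samples and bars for the mean and SD of 3 samples. Cox6b1 is nearly level within each pair, and all 3 Cox6b2 lines slope down, from 269.5 to 297.2 FPKM down to 239.0 to 245.1 FPKM.

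Complex I takes electrons from NADH in a matrix arm and pumps protons in a membrane arm. Its 7 matrix arm core genes had a median log2 fold change of 0.02 and its 30 other genes 0.02. Ndufb8 had the smallest blocked p of the complex, with 141.1, 131.4 and 127.3 CPM in control and 151.5, 149.0 and 130.8 CPM in cholesterol samples. Every pair was higher with cholesterol, but the groups overlapped, and the blocked log2 fold change of 0.11 (SE 0.045) had an edgeR adjusted p of 0.18. Ndufv3, a small accessory subunit at the NADH-binding end of the matrix arm, had 39.5, 35.6 and 34.8 CPM in control and 37.7, 32.6 and 29.5 CPM in cholesterol samples. Every pair was lower with cholesterol, and the blocked log2 fold change was -0.14 (SE 0.061, edgeR adjusted p = 0.19). Ndufa11, a membrane arm subunit with the lowest FPKM of the complex, had 69.0, 63.4 and 75.8 CPM in control and 67.4, 67.1 and 71.6 CPM in cholesterol samples, with no order between the groups.

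Ndufb4c was the other member, besides Cox6b2, whose groups did not overlap, and it is described because of that, after its values were seen. Groups did not overlap for 0 members with cholesterol higher and for 2 with cholesterol lower, against 3.72% and 4.28% of all genes. Ndufb4c had 17.1, 18.1 and 15.7 CPM in control and 14.6, 15.4 and 14.9 CPM in cholesterol samples, and a blocked log2 fold change of -0.18 (SE 0.080, edgeR adjusted p = 0.21). By FPKM its groups overlapped. Its locus (chromosome 15, 73809449 to 73809933, GRCm38.p6) lies within the gene Mroh5 and is far from Ndufb4, a membrane arm subunit gene on chromosome 16. Neither gene had whole counts in any sample, but their sum was whole in 6 of 6 samples, so the counting program had divided reads between the 2 genes. The values of Ndufb4c and Ndufb4 are therefore uncertain. Ndufb4 was higher and Ndufb4c lower in every pair, and since they share reads they are not independent in the pair counts. Of the 80 tested members, 68 had whole counts in all 6 samples.

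Complex II, which is also the succinate dehydrogenase of the citric acid cycle, had no called gene. Sdha, its flavoprotein, had 258.1, 243.2 and 203.6 CPM in control and 252.0, 246.5 and 206.1 CPM in cholesterol samples. Sdhb, its iron-sulfur subunit, had 92.4, 79.4 and 75.3 and then 91.5, 77.2 and 74.5 CPM, slightly lower in each pair, with a blocked log2 fold change of -0.02 (SE 0.047, edgeR adjusted p = 0.85). The differences between samples of a group were much larger than those between the groups. The anchor Sdhc had 116.1, 106.3 and 87.9 CPM in control and 117.8, 105.4 and 98.0 CPM in cholesterol samples, and its blocked log2 fold change of 0.05 (SE 0.047) had an edgeR adjusted p of 0.60. The other anchor, Sdhd, had 90.8, 91.3 and 60.6 CPM in control and 91.9, 86.6 and 62.8 CPM in cholesterol samples, and was lowest in both samples numbered 3.

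In complex III the 2 large core proteins Uqcrc1 and Uqcrc2 had a median log2 fold change of 0.05, and the catalytic subunit genes Cyc1 (cytochrome c1) and Uqcrfs1 (the Rieske iron-sulfur protein) one of -0.02. Uqcrh, the hinge protein that helps cytochrome c bind, had 109.4, 99.1 and 92.0 CPM in control and 111.7, 111.9 and 94.9 CPM in cholesterol samples. It was higher in each pair, with a blocked log2 fold change of 0.08 (SE 0.047, edgeR adjusted p = 0.35). Uqcrc1 had 308.9, 285.2 and 235.7 CPM in control and 318.4, 291.6 and 254.4 CPM in cholesterol samples, also higher in each pair, at 0.06 (SE 0.041, edgeR adjusted p = 0.45). Uqcr10 had 116.0, 96.6 and 100.3 and then 118.4, 101.2 and 94.9 CPM, and Uqcrq 134.3, 124.1 and 111.5 and then 126.7, 126.3 and 114.2 CPM. Neither showed an order between the groups.

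Apart from Cox6b2, complex IV also stayed near its control level. Cox6c, a small membrane subunit, had 83.4, 85.2 and 85.0 CPM in control and 92.8, 97.7 and 82.2 CPM in cholesterol samples, so that 2 cholesterol samples lay above all controls and 1 lay below. Its blocked log2 fold change was 0.10 (SE 0.052, edgeR adjusted p = 0.29). With the block but without the samples numbered 3 it was called higher, at 0.17 (edgeR adjusted p = 0.026). The most abundant subunit gene of the complex, Cox6a1, had 366.0, 331.4 and 342.4 CPM in control and 358.1, 339.8 and 346.3 CPM in cholesterol samples. Cox7b had 122.4, 115.3 and 101.6 CPM in control and 117.4, 121.4 and 104.2 CPM in cholesterol samples. Both overlapped between the groups.

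In complex V the 5 genes of the F1 head (Atp5a1, Atp5b, Atp5c1, Atp5d and Atp5e) all had a log2 fold change at or above 0.00056 in the fit without the block, with a median of 0.02, and the 4 small membrane subunits all had one below 0, with a median of -0.02. By FPKM, 5 of 5 and 4 of 4 were higher, so the second direction flips with the scale. With the block Atp5b was at -0.0013, and it was lower in 2 of 3 pairs, so the direction of the F1 head is not shared by all 5 genes in that fit. No member of either set was called. Atp5b had 1896, 1722 and 1508 CPM in control and 1868, 1798 and 1461 CPM in cholesterol samples. Atp5e, the epsilon subunit of the central stalk, had 77.5, 70.6 and 72.0 and then 79.2, 77.8 and 73.2 CPM, higher in each pair, with a blocked log2 fold change of 0.06 (SE 0.049, edgeR adjusted p = 0.52). Atp5j, the F6 protein of the peripheral stalk, had 117.6, 103.1 and 101.8 CPM in control and 106.9, 111.9 and 92.5 CPM in cholesterol samples, lower in 2 pairs and higher in 1.

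The c-ring, the rotor that protons turn, is built from 1 protein that 3 genes encode. Atp5g1 had 201.9, 187.6 and 139.3 CPM in control and 201.2, 181.4 and 135.1 CPM in cholesterol samples. Atp5g2 had 105.1, 101.8 and 84.9 and then 104.5, 105.5 and 86.8 CPM, and Atp5g3 had 178.2, 177.2 and 122.4 and then 170.4, 165.6 and 128.8 CPM. All 3 genes were lowest in the samples numbered 3 of both groups. By FPKM the mixture of the 3 genes differed little between the groups. Over the 6 samples Atp5g1 was at 34.8% to 38.5% of their sum, Atp5g2 at 24.6% to 27.9% and Atp5g3 at 35.9% to 38.7%. Atp5g2 had its highest shares in the samples numbered 3, at 27.7% in C3 and 27.9% in CHO3.

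The larger differences among the members followed the replicate number. Both samples numbered 3 lay below the other 4 samples for 51 of the 80 members, against 27.3% of all genes, and above the other 4 for 2 members (Ndufa6 and Ndufa11), against 26.2% of all genes. With FPKM these counts were 63 and 1, against 32.9% and 20.4% of all genes, and with DESeq2-style size factors 50 and 2, against 26.5% and 26.8%. The pattern held for 19 of 37 genes of complex I, 4 of 4 of complex II, 7 of 9 of complex III, 8 of 13 of complex IV and 13 of 16 of complex V. It was not tested, since the numbers are not a condition of the study.

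The size of this difference was similar in both groups. Mean log2 CPM over the 80 members was 6.76, 6.67 and 6.55 in C1 to C3 and 6.75, 6.72 and 6.53 in CHO1 to CHO3, so sample 3 lay below sample 1 by 0.21 in control and by 0.22 in cholesterol samples. Over all genes tested the mean of sample 3 instead lay above that of sample 1, by 0.12 in control and by 0.066 in cholesterol samples. The median difference, sample 3 minus sample 1, was -0.0091 and -0.0020 over all genes and -0.22 and -0.22 over the members. Complex II differed most, by -0.40 in control and -0.35 in cholesterol samples. Complex III followed with -0.31 and -0.28, and then complex V with -0.25 and -0.25. Complex IV had -0.18 and -0.18 and complex I -0.17 and -0.20, so their order differed between the groups. Within complex V the c-ring genes stood at -0.46 and -0.41. The samples numbered 3 also had the highest adult globin share and the highest neutrophil marker level of each group, and the part of either in this pattern was not tested.

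**Figure D4:**
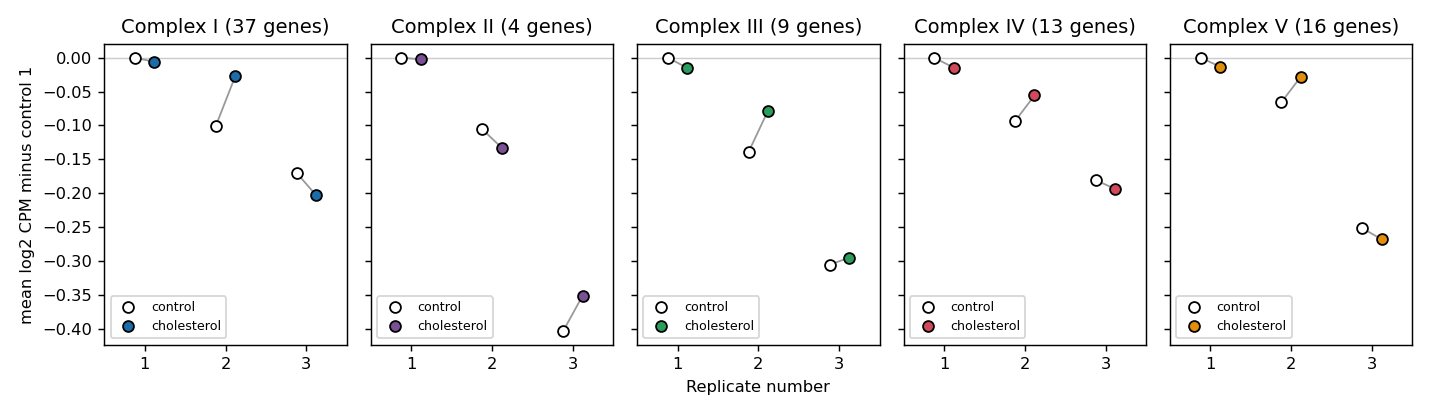
Mean log2 CPM of the tested members of each complex, minus the value of control sample 1, for control (open) and cholesterol (filled) samples by replicate number; grey lines join same-numbered samples. In all 5 complexes the samples numbered 3 are the lowest of both groups.

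**Figure D5:**
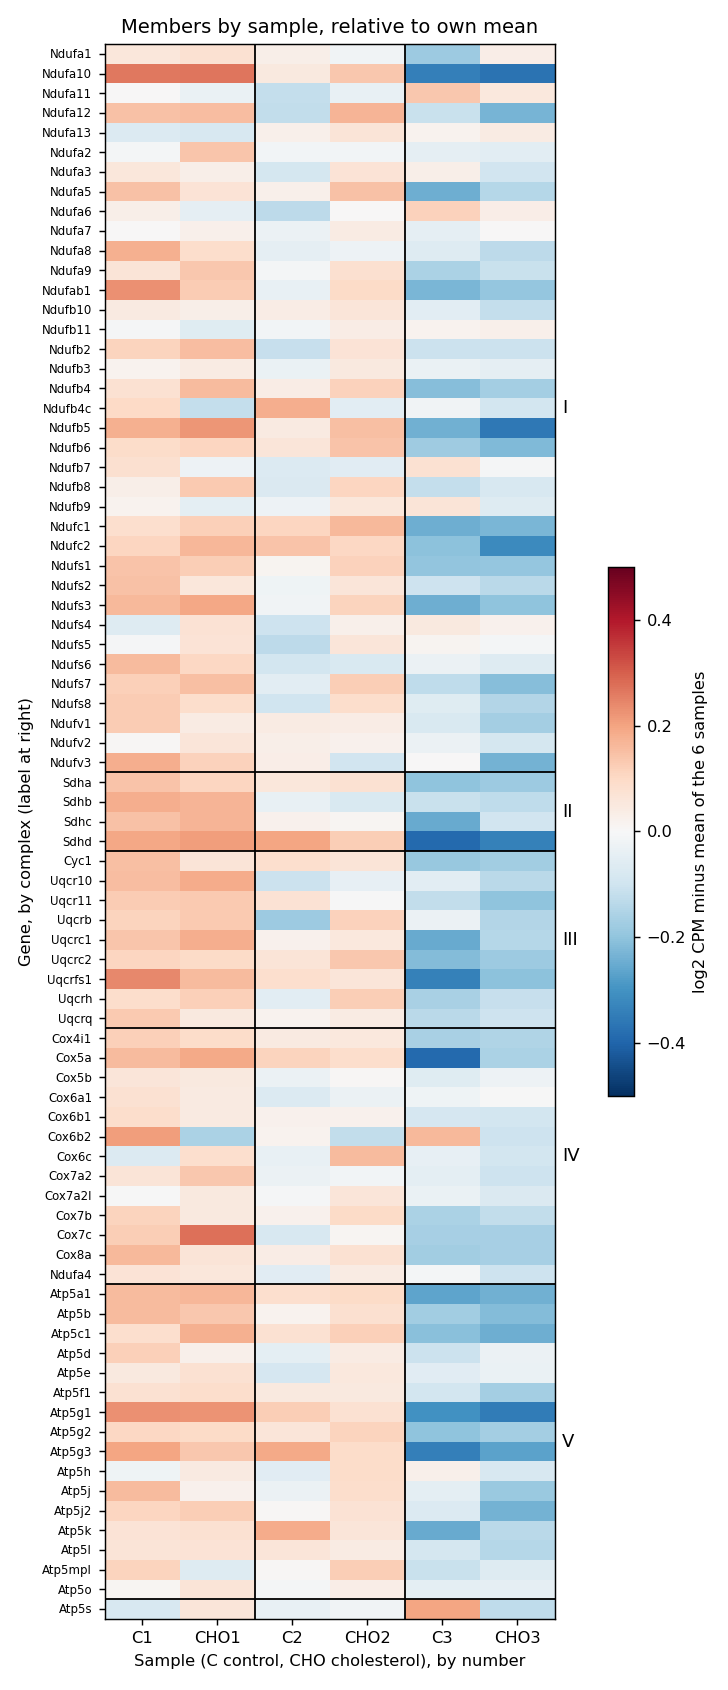
Log2 CPM of each tested member minus its mean over the 6 samples, as colour (red above, blue below the mean), with same-numbered control and cholesterol samples side by side. The columns C3 and CHO3 are blue for most genes, and Cox6b2 differs from its neighbours in that C1 and C3 are red and all 3 cholesterol samples blue.

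Other genes that respiration depends on were counted in the same fits, where 0.00887% of all genes were called higher and 0% lower without the block, 1.65% and 5.2% with it, and 52.1% were higher on average. At the shares without the block, few or no calls would fall on lists of this size. At those with the block, a few would fall on the longest list. Of 52 tested assembly factors of the complexes, 0 were called with or without the block, 35 were higher on average, and their median log2 fold change was 0.04 (range -0.19 to 0.22). Of 13 citric acid cycle enzymes 0 were called and 8 were higher, with a median of 0.02. Of 5 genes for cytochrome c, the adenine nucleotide and phosphate carriers and the ATP synthase inhibitor, 0 were called and 3 were higher. Both samples numbered 3 lay below the other 4 for 33 of the 52 assembly factors, 11 of the 13 cycle enzymes and 4 of the 5 carrier genes, against 27.3% of all genes.

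Among 13 tested regulators of mitochondrial biogenesis 0 were called in either fit and 10 were higher on average, against 52.1% of all genes (median log2 fold change 0.06). Pprc1, a coactivator of the PGC-1 family, had 84.7, 78.5 and 62.1 CPM in control and 95.2, 80.5 and 77.5 CPM in cholesterol samples. It was higher in each pair, with a blocked log2 fold change of 0.17 (SE 0.054, edgeR adjusted p = 0.067). With the block but without the samples numbered 2 it was called higher, at 0.24 (edgeR adjusted p = 0.043). Yy1, a transcription factor with sites at many such genes, had 75.8, 78.8 and 69.8 and then 82.8, 82.5 and 77.6 CPM, at 0.12 (SE 0.048, edgeR adjusted p = 0.17). Polrmt, the mitochondrial RNA polymerase, was also higher in each pair (0.12, SE 0.078, edgeR adjusted p = 0.44). Esrra, a nuclear receptor that works with PGC-1 coactivators, was lower in each pair (-0.18, SE 0.13, edgeR adjusted p = 0.48) and Ppargc1b, another such coactivator, had 1.53 to 4.63 CPM and a blocked log2 fold change of 0.33 (SE 0.23, edgeR adjusted p = 0.47). The blocked log2 fold changes of the other regulators were 0.11 for Tfam, the packaging factor of mitochondrial DNA, 0.06 for Gabpa, 0.05 for Gabpb1 and -0.05 for Nrf1, 0.05 for Tfb1m and 0.10 for Tfb2m, -0.02 for Polg and 0.02 for Twnk, with edgeR adjusted p-values from 0.43 to 0.95.

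NRF1, GABPA (NRF2) and YY1 are transcription factors known to bind near the starts of many respiratory chain genes, and the promoters of the members were searched for 1 strict form of each site on both strands. A RefSeq window was at hand for 68 of the 86 members. The NRF1 letters GCGCATGCG were in 8 of them (11.8%), in 1.95% of all 27025 genes with a window and in 4.41% of the 9032 tested genes with one. The GABPA letters CCGGAAGT were in 5 (7.35%), against 4.31% of all and 9.9% of tested genes. The YY1 letters AAGATGGCG were in 7 (10.3%), against 1.64% of all and 3.89% of tested genes. Members held 1.07 windows per gene and all genes 1.22. Any of the 3 motifs was found in 19 members (27.9%), against 17.1% of the tested genes, and the shares are descriptions with no test.

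The members with the NRF1 letters were Ndufa8, Ndufa11, Uqcrc1, Uqcr11, Cox6a1, Atp5g2, Atp5k and Atp5l. Those with the GABPA letters were Ndufs3, Uqcr11, Uqcrh, Cox8a and Atp5h, and those with the YY1 letters Ndufa9, Ndufc1, Ndufs4, Ndufs6, Ndufs7, Atp5j and Atp5j2. Uqcr11, which encodes a small complex III subunit, was the member with 2 of the motifs, and Cox6a1 was the most abundant member with the NRF1 letters. Their windows show how the letters lie in a promoter, in capitals, with the same layout and build as above. The window of Cox6a1 is chr5:115348909-115349208 and that of Uqcr11 is chr10:80406772-80407071, both on the minus strand.
Cox6a1: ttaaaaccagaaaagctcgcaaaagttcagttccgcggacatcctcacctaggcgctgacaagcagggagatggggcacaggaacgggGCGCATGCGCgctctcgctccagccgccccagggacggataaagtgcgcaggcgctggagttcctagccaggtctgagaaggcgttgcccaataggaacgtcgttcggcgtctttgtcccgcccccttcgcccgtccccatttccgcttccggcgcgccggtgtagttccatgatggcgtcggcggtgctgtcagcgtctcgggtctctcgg
Uqcr11: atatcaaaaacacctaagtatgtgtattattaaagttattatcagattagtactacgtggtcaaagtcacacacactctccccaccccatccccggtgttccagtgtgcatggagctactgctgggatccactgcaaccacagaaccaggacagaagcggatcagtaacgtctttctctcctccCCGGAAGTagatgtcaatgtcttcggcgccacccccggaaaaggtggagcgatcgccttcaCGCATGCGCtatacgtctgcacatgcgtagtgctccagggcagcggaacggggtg
In Cox6a1 the capitals are 2 overlapping NRF1 matches, 1 on each strand, since the letters nearly read the same on both. In Uqcr11 the first capitals are the GABPA letters, starting 66 bases before the gene start, and the second are the NRF1 letters read on the other strand, starting 5 bases before it. Neither gene was called, with 366.0, 331.4 and 342.4 CPM in control and 358.1, 339.8 and 346.3 CPM in cholesterol samples for Cox6a1, and 94.3, 90.7 and 79.1 and then 94.6, 86.1 and 74.9 CPM for Uqcr11. The blocked log2 fold change of Uqcr11 was -0.05 (SE 0.047, edgeR adjusted p = 0.64).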

How the data were processed

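Polyadenylated RNA was sequenced as single-end reads on a DNBSEQ instrument. The authors deposited expected counts per gene, which need not be whole, and normalized values without a named unit. The authors' normalized values were taken as FPKM, counts divided by transcript length and library total before deposit, because each count, FPKM and library total gave nearly the same length for a gene in every sample (median coefficient of variation 0.28%). The submitters' processing notes name HISAT2 2.0.4, Bowtie2 2.2.5, RSEM 1.2.12, DESeq2 1.4.5 and GRCm38.p6, without their roles. The expected counts were rounded to whole numbers, as had been planned for estimated counts. They were tested in R 4.3.3 with edgeR 4.0.16 (TMM, filterByExpr with at least 10 counts in enough samples and 15 in all, robust glmQLFit, glmQLFTest), with adjustment over all genes and a threshold of 0.05. The fit was checked on simulated counts. Log2 values of single samples used CPM + 0.5.

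Deviations from the group mean correlated at 0.77, 0.44 and 0.85 in the same-numbered pairs 1 to 3 over all genes. Each sample correlated best with its own number, though CHO2 correlated with C1 at 0.41, nearly as well as with C2. The numbers come from the sample titles and were taken to pair the samples, and the block was fitted as an alternative. Others were DESeq2 1.42.0, other size factors, leaving globin genes out, other filters, limma 3.58.1 on log2(FPKM + 1) or log2(FPKM + 0.1), and leaving out samples. No 2 samples agreed within sampling noise (chi-square per degree of freedom at least 8.75).

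Members given by sample included those past the threshold in either fit and the 2 with the smallest blocked p per complex. The highest and lowest per complex, the isoform families and the c-ring were also given, with the low isoforms as counts or count ranges. Of the biogenesis regulators, Pprc1 and Yy1 were given by sample and the others by fold change. Members outside this rule, such as Ndufb4c, Sdha and Uqcr11, were added after their values were seen. The members and lists were chosen with earlier results of these data known. All 86 members matched a RefSeq gene of GRCm38.p6, and promoter sequences are those of RefSeq. The 14 erythroid markers leave out 1 gene of the planned list, which is not reported here.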

Additional observations from a re-analysis of the deposited data

How the results depend on the processing

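The members' count of calls moved with the replicate block and with the samples used. Without the block, 0 members were called under every alternative, samples left out included. With the block 0 were higher and 1 was lower, and leaving out both samples numbered 1, 2 or 3 gave 0, 0 or 2 higher (Cox6c at 0.17, adjusted p = 0.026, and Uqcrb at 0.16, adjusted p = 0.047, which was not among the members chosen by rule) and 0, 1 or 1 lower, each time Cox6b2. Over all genes, 1 was higher and 0 lower without the block, 186 and 586 with it, and 118, 67 and 210 higher and 703, 229 and 516 lower with the block and without number 1, 2 or 3. DESeq2 called 2 higher and 26 lower. Leaving out 1 sample without the block gave 1 higher throughout and 0 to 7 lower, with 7 lower without control replicate 3 and 1 lower without cholesterol replicate 3. Of the other pathway genes 1 was called, Pprc1, with the block and without number 2 (0.24, adjusted p = 0.043). On the FPKM scale all 3 pairs went up for 29 members and down for 3, and groups did not overlap for 1 member higher (Ndufs4, 5.1% of all genes) and 1 lower (Cox6b2, 2.94% of all genes). With DESeq2-style size factors this held for 1 higher (Ndufa7, 3.6% of all genes) and 2 lower (Cox6b2 and Ndufb4c, 4.36% of all genes). The median log2 fold change of the members ran from -0.049 without control replicate 3 to 0.080 without cholesterol replicate 3. The block changed no other call among the members. The causes were not tested. With 3 samples a group, the 95% interval without the block lay within 1.25-fold for 49 of the 80 tested members.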
